A study of Homo sapiens with 8 samples.

Results

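*HBB* is the adult β-globin gene on chromosome 11, and its long-range DNA interactions were read from CAPTURE-3C-seq lists of wild-type (WT) and BCL11A knockout (KO) HUDEP-2 cells. An interaction belonged to *HBB* when the midpoint of 1 end lay at chr11:5246501-5250201 (hg19), a region of 3701 bp that holds the gene and its promoter, and the other end lay outside it. By this rule *HBB* had 198 of the 2966 distinct pairs in WT (6.68%) and 125 of the 2310 in KO (5.41%), 323 of 5276 in all. No pair had both ends inside the region in either list.

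HUDEP-2 cells are human erythroid progenitors that were immortalized and keep an adult-like globin pattern. Both genotypes carried a biotinylated, catalytically inactive Cas9 with sgRNAs that brought it to *HBB*, *HBG1*/*2*, the sequence upstream of *HBD* and the locus control region (LCR). The labels name an expansion medium with SCF, EPO, dexamethasone and doxycycline, whereas the study's methods say that cells were taken for CAPTURE after 5 days in differentiation medium. The KO cells differed by the disrupted *BCL11A* gene, and no source used here says whether they were 1 clone. For each genotype 3 replicates had been merged into 1 list, so there is no replicate error for any value, every test compares 2 lists rather than 2 genotypes, and every interval covers counting error only.

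The β-like globin genes lie in a row, *HBE1*, *HBG2*, *HBG1*, *HBD* and *HBB*, in the order in which they are used in development. The LCR is a cluster of enhancers, the DNase I hypersensitive sites HS1 to HS5, upstream of *HBE1*, and high expression of a globin gene in red cells depends on its contact with the LCR. BCL11A is a transcription factor that represses the fetal γ-globin genes *HBG1* and *HBG2* in adult erythroid cells. Downstream of *HBB*, 3'HS1 is a hypersensitive site bound by CTCF that can loop to the far side of the LCR. The comparison asked how the partners of *HBB* along this locus differ when BCL11A is missing.

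The canonical *HBB* transcript runs on the minus strand from 5248301, the transcription start site (TSS), to 5246694. Its ends in the lists were 42 bp long, and 50 of the 198 in WT (25.3%) and 28 of the 125 in KO began or ended exactly at a GATC. The 4 ends outside untranslated sequence that were used by most pairs of both lists together are shown because 2 of them meet at 1 GATC inside the gene. They are written as the plus strand of hg19, 5′ to 3′, with GATC in capitals.
chr11:5247821-5247862 (exon 2): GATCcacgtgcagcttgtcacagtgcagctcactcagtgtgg
chr11:5247665-5247706 (intron 2): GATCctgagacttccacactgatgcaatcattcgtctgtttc
chr11:5247783-5247824 (border of intron 2 and exon 2): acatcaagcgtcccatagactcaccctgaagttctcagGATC
chr11:5248665-5248706 (upstream of the TSS): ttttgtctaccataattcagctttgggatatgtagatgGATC

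The first of these ends was used by 15 pairs in WT and 7 in KO, and it starts at the GATC in which the third one ends. The intron 2 end was used by 6 pairs in WT and 3 in KO. The end at the border of intron 2 and exon 2 was used by 8 pairs in WT and by none in KO, where a count of 0, with 3 pairs taken as its limit, allows a share of up to 2.4% of the 125 pairs. The upstream end, which starts 364 bp from the TSS, was used by 5 pairs in WT and 2 in KO.

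Anchors of *HBB* pairs reached from intron 2 to the upstream edge of the region, were densest around the TSS, and were absent from the 3' end of the gene. Split by the annotation, the promoter side (TSS to the upstream edge of the region, 1900 bp) held 117 of 198 anchors in WT (59.1%, 95% Wilson interval 52.1 to 65.7) and 75 of 125 in KO (60.0%, 51.2 to 68.2). The body (exon 1 to the end of intron 2, 1345 bp) held 81 in WT (40.9%, 34.3 to 47.9) and 50 in KO (40.0%, 31.8 to 48.8). The last exon and the sequence downstream of it held 0 in both, which by the same limit allows up to 1.52% in WT and 2.4% in KO. Tests were two-sided, and the promoter share gave a ratio of KO to WT of 1.02 that did not pass (95% interval 0.749 to 1.37; adjusted p = 0.964 by Fisher's exact test). The lowest base of any anchor was 5247251 in WT and 5247517 in KO, both in intron 2.

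Per length, the promoter side and the body were used alike, at 61.6 and 60.2 pairs per kb in WT and 39.5 and 37.2 in KO. Within them the ends were uneven. Exon 1, of 142 bp, held 30 ends in WT and 22 in KO. Exon 2, of 223 bp, held 21 and 10. Intron 1, of 130 bp, held 4 and 5, and intron 2, of 850 bp, held 26 and 13. On the promoter side, the 0.5 kb next to the TSS held 60 anchors in WT and 53 in KO, and the 1400 bp farther upstream held 57 and 22.

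**Figure D1:**
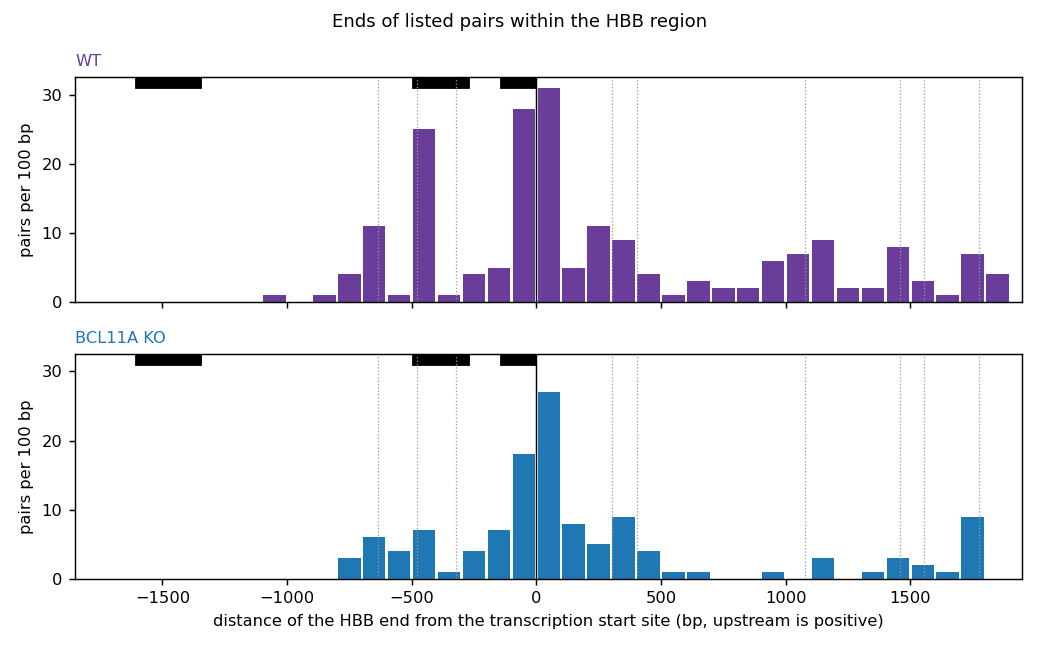
Number of *HBB* pairs by the position of their end within the *HBB* region, in bins of 100 bp, for WT (top) and KO (bottom). The x axis is the distance from the TSS in bp, black bars are the 3 exons, and dotted lines are the first bases of the GATC fragments in use. In both lists the highest bin is the first one upstream of the TSS, and no end lies in the last exon at the left.

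Cutting at every GATC splits the region into fragments, and 1 of them carried the most pairs in both lists. The fragment chr11:5247977-5248603 runs from within exon 2 over intron 1 and exon 1 to 302 bp upstream of the TSS. In WT it held 84 of 198 pairs (42.4%, 35.7 to 49.4), and in KO 70 of 125 (56.0%, 47.2 to 64.4). The fragment chr11:5248703-5249377, next but 1 upstream, held 23 pairs in WT and 7 in KO, and chr11:5249378-5249758 beside it held 19 and 5. Per length, the leading fragment, of 627 bp, held 134 pairs per kb in WT and 112 in KO. The fragments of 156 bp next to it, towards the 3' end of the gene, held 109 per kb each in WT, and 51.3 and 44.9 in KO.

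The leading fragment did not serve all partners alike. In WT it was the *HBB* end of 25 of 65 pairs to the LCR (38.5%, 27.6 to 50.6) and of 13 of 56 pairs to the sequence upstream of *HBD* (23.2%, 14.1 to 35.8). It was also the end of 13 of 15 pairs to the sequence between *HBB* and 3'HS1 (86.7%, 62.1 to 96.3) and of 11 of 14 pairs that left the locus (78.6%, 52.4 to 92.4). In KO it took 6 of 23 pairs to the LCR (26.1%, 12.5 to 46.5) and 5 of 28 to the sequence upstream of *HBD* (17.9%, 7.88 to 35.6), but 33 of 39 pairs that left the locus (84.6%, 70.3 to 92.8). For the sequence between *HBB* and 3'HS1 it took 13 of 18 in KO (72.2%, 49.1 to 87.5). Most *HBB* ends of pairs to the LCR and upstream of *HBD* thus lay on other fragments, and most of those of pairs downstream of *HBB* and beyond the locus lay on the fragment around the TSS. Of the 5 WT pairs to the 3'HS1 window, 2 were on it.

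In WT most partners of *HBB* lay in 2 places, the sequence upstream of *HBD* and the LCR, with 56 and 65 of its 198 pairs. In KO these places held 28 and 23 of 125, and the sequence downstream of *HBB* held 18, that beyond 3'HS1 20 and that beyond the LCR 19. The first 2 places are baits themselves, and in KO 11 and 6 of their pairs stood in their own lists only. In the *HBB* list they held 40 and 55 of 171 pairs in WT and 17 and 17 of 108 in KO. The KO counts of 18, 20 and 19 were the same in that list, so the order in KO hung on the lists. Together with all segments of the locus as anchors, 188 comparisons of this kind were tested and 72 passed an adjusted p of 0.05 (38.3%). For *HBB* 7 of 32 did (21.88%), and 9 had an unadjusted p under 0.05.

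The LCR segment, chr11:5295275-5313575, took 65 of the 198 *HBB* pairs in WT (32.8%, 26.7 to 39.6) and 23 of the 125 in KO (18.4%, 12.6 to 26.1). The share fell in KO, with a ratio of KO to WT of 0.56 (95% interval 0.332 to 0.914; adjusted p = 0.0157 by Fisher's exact test). Of these pairs, 48 in WT and 17 in KO were listed from both the *HBB* and the LCR side, 7 and 0 from the *HBB* side alone, and 10 and 6 from the LCR side alone. Seen from the LCR, the same pairs were 65 of 916 pairs in WT (7.10%) and 23 of 889 in KO (2.59%), a fall to 0.365 of the WT share (0.216 to 0.595; Fisher's exact test, adjusted p = 4.6e-05).

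The size of this fall depends on what it is divided by. With only pairs that stay between 3'HS1 and the LCR, the share was 65 of 184 in WT (35.3%) and 23 of 86 in KO (26.7%), which fell short of the threshold (ratio 0.757, Fisher's exact test, adjusted p = 0.294). It also did not pass among pairs with the highest score (65 of 194 and 23 of 97, Fisher's exact test, adjusted p = 0.193) or among distinct pairs of GATC fragments (43 of 139 and 19 of 101, adjusted p = 0.112). On the leading fragment around the TSS the LCR share was 25 of 84 in WT (29.8%) and 6 of 70 in KO (8.57%; Fisher's exact test, adjusted p = 0.00426). On all other fragments it was 40 of 114 in WT (35.1%) and 17 of 55 in KO (30.9%; Fisher's exact test, adjusted p = 0.839). These splits by fragment were chosen after the data had been seen, and the difference between them was not tested.

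**Figure D2:**
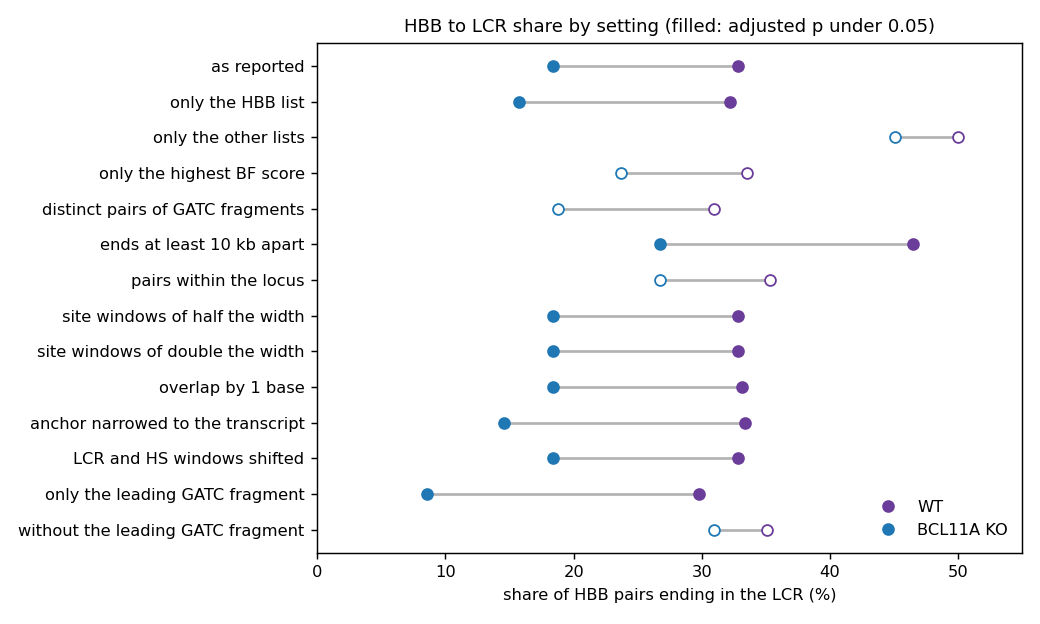
Share of *HBB* pairs that end in the LCR (x axis, %) in WT and KO under each setting, with the value as reported on top. Filled points mark settings with an adjusted p under 0.05; the KO point lies left of the WT point in every setting, from 8.57% on the leading fragment to 45.1% in the lists of the other baits.

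Within the LCR, windows of 2 kb at the 5 hypersensitive sites covered 54.7% of the segment and held 53 of the 65 pairs in WT (81.5%) and 21 of the 23 in KO (91.3%). HS3 had the most *HBB* pairs in WT, 19 of 198 (9.60%, 6.23 to 14.5), and 8 of 125 in KO (6.40%, 3.28 to 12.1). HS2, a classical enhancer, had 12 pairs in WT (6.06%, 3.5 to 10.3) and 3 in KO (2.40%, 0.82 to 6.82), a ratio of 0.396 with an interval of 0.0717 to 1.47. HS4 had 9 pairs in WT (4.55%, 2.41 to 8.41) and 8 in KO (6.40%). HS5, a CTCF-bound boundary site, had 5 (2.53%) and 2 (1.60%). HS1 had 8 pairs in WT (4.04%, 2.06 to 7.77) and 0 in KO, a ratio of 0 with an interval of 0 to 0.928. With 3 pairs taken as the smallest number told from 0, the KO share was at least 1.68-fold lower. That bound leaves out the counting error of the 8 WT pairs.

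No single HS window passed the threshold. The adjusted p-values (Fisher's exact test) were 0.0631 for HS1, 0.296 for HS2, 0.563 for HS3, 0.602 for HS4 and 0.805 for HS5, and the intervals of HS2 to HS5 each included both a fall and a rise. Windows of double the width gave 10 pairs at HS1 in WT and 0 in KO, which passed (Fisher's exact test, adjusted p = 0.0239). In WT the order from HS3 over HS2, HS4 and HS1 to HS5 had overlapping intervals between neighbours, and in KO HS3 and HS4 were level.

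**Figure D3:**
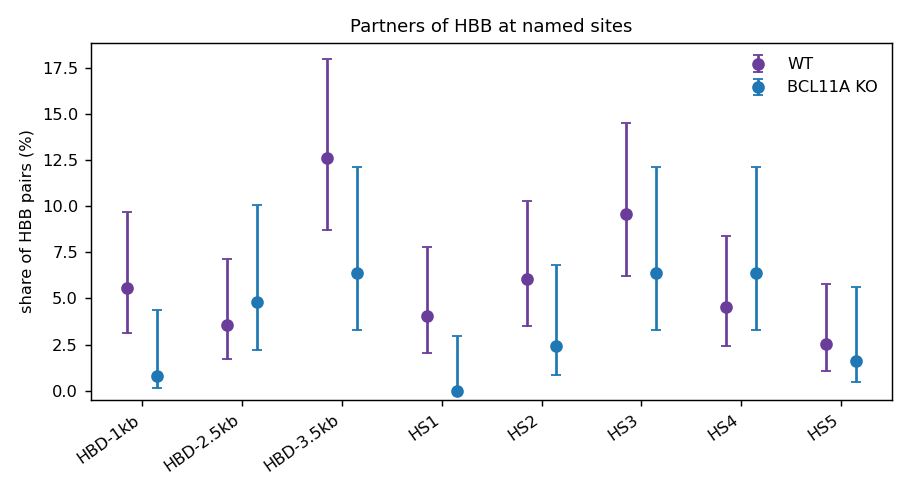
Share of *HBB* pairs (y axis, %) that end in windows at the sites upstream of *HBD* (1 kb) and at HS1 to HS5 (2 kb), with 95% Wilson intervals, for WT and KO. HS1 stands at 4.04% in WT and at 0 in KO, and HS4 is the only hypersensitive site whose KO point lies above its WT point.

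The promoter and the body of *HBB* had like shares of LCR partners in WT. From the promoter side 38 of 117 pairs ended in the LCR (32.5%, 24.7 to 41.4) and from the body 27 of 81 (33.3%, 24.0 to 44.1; Fisher's exact test, adjusted p = 1). In KO the promoter side had 12 of 75 (16.0%, 9.40 to 25.9) and the body 11 of 50 (22.0%, 12.8 to 35.2; Fisher's exact test, adjusted p = 0.615). Between the lists, the share from the promoter side fell (ratio 0.493, 0.234 to 0.963; Fisher's exact test, adjusted p = 0.0346; 25 of 76 and 9 of 59 as distinct pairs of GATC fragments, adjusted p = 0.0922, which did not pass), while that from the body had a ratio of 0.66 (0.295 to 1.37; adjusted p = 0.378). Whether the 2 ratios differ was not tested.

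The LCR change of *HBB* was set against those of the *HBG* segment (*HBG2* and the start of *HBG1*) and of the segment upstream of *HBD*, with pairs that join the 2 anchors counted in neither. For *HBB* without pairs to *HBG*, the LCR share was 65 of 191 in WT (34.0%) and 23 of 122 in KO (18.9%). For *HBG* it was 57 of 153 in WT (37.3%) and 123 of 146 in KO (84.2%). The odds of ending in the LCR in KO were 0.45 times those in WT for *HBB* and 9.01 times for *HBG*, a log2 ratio of -4.32 (Zelen's exact test, adjusted p = 5.77e-14). Against the sequence upstream of *HBD*, whose odds in KO were 1.43 times those in WT, the ratio was 0.257 or -1.96 on the log2 scale (Zelen's exact test, adjusted p = 0.000401). That second difference did not pass among pairs within the locus (ratio 0.427, Zelen's exact test, adjusted p = 0.087). With pairs to *HBB* included, the segment upstream of *HBD* had 130 of 951 pairs to the LCR in WT and 47 of 268 in KO. The ratio of these shares, 1.28, did not pass (Fisher's exact test, adjusted p = 0.224). Seen from the LCR, the share of this segment fell from 14.2% to 5.29%, to 0.373 of that in WT (Fisher's exact test, adjusted p = 9.6e-10), against 0.365 for *HBB*.

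The segment upstream of *HBD*, chr11:5255714-5261213, was the densest partner per length, with 10.2 *HBB* pairs per kb in WT and 5.09 in KO, against 3.55 and 1.26 in the LCR. It is often removed in deletions with hereditary persistence of fetal hemoglobin. In WT it took 56 of 198 pairs (28.3%, 22.5 to 34.9), and in KO 28 of 125 (95% interval 16.0 to 30.5%), a difference that did not pass the threshold (ratio 0.792, 0.484 to 1.27; Fisher's exact test, adjusted p = 0.451). Of these pairs, 40 in WT and 17 in KO were listed from both sides. The list of the bait upstream of *HBD* alone held 16 in WT and 11 in KO. As a share of all pairs that leave the segment upstream of *HBD*, those to *HBB* rose from 56 of 951 (5.89%) to 28 of 268 (10.4%; ratio 1.77, 1.09 to 2.84; Fisher's exact test, adjusted p = 0.0386), with fewer pairs in KO on both sides of the fraction.

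Inside this segment, the 1-kb window around 3.5 kb upstream of *HBD* (HBD-3.5kb) held 25 *HBB* pairs in WT (12.6%, 8.70 to 18.0) and 8 in KO (6.40%, 3.28 to 12.1; Fisher's exact test, adjusted p = 0.179). The window around 1 kb upstream (HBD-1kb) held 11 pairs in WT (5.56%, 3.13 to 9.67) and 1 in KO (0.80%, 0.141 to 4.39), a ratio of 0.144 with an interval of 0.00335 to 0.991 (Fisher's exact test, adjusted p = 0.0747). The window around 2.5 kb (HBD-2.5kb) held 7 in WT and 6 in KO (Fisher's exact test, adjusted p = 0.71). None of the 3 passed the threshold, and the values hung on the width of the windows. At double width HBD-1kb held 16 pairs in WT and 9 in KO, a ratio of 0.891, and in the narrower windows it held 7 and 0. For HBD-3.5kb double width gave 37 and 12 pairs, a ratio of 0.514 (Fisher's exact test, adjusted p = 0.0638), and the narrower windows gave 2 in each list, too few for a test.

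The other segments between *HBB* and the LCR each took at most 13 pairs in a list. The sequence between *HBB* and *HBD* took 13 pairs in WT (6.57%) and 5 in KO (4.0%), and the *HBD* gene 7 (3.54%) and 3 (2.40%). Per length these 2 short segments were used about as much as the LCR, at 3.36 and 4.25 pairs per kb in WT and 1.29 and 1.82 in KO. The stretch with the pseudogene *HBBP1*, the noncoding RNA gene *BGLT3* and the 3' part of *HBG1* took 8 (4.04%) and 4 (3.20%). The *HBG* segment, with *HBG2* and the part of *HBG1* next to its start, took 7 (3.54%, 1.72 to 7.12) and 3 (2.40%, 0.82 to 6.82), a ratio of 0.679 with an interval of 0.113 to 2.97. The sequence around the embryonic gene *HBE1* took 8 (4.04%) and 2 (1.60%). None of these 5 passed the threshold, with adjusted p-values from 0.48 to 0.854 (Fisher's exact test).

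**Figure D4:**
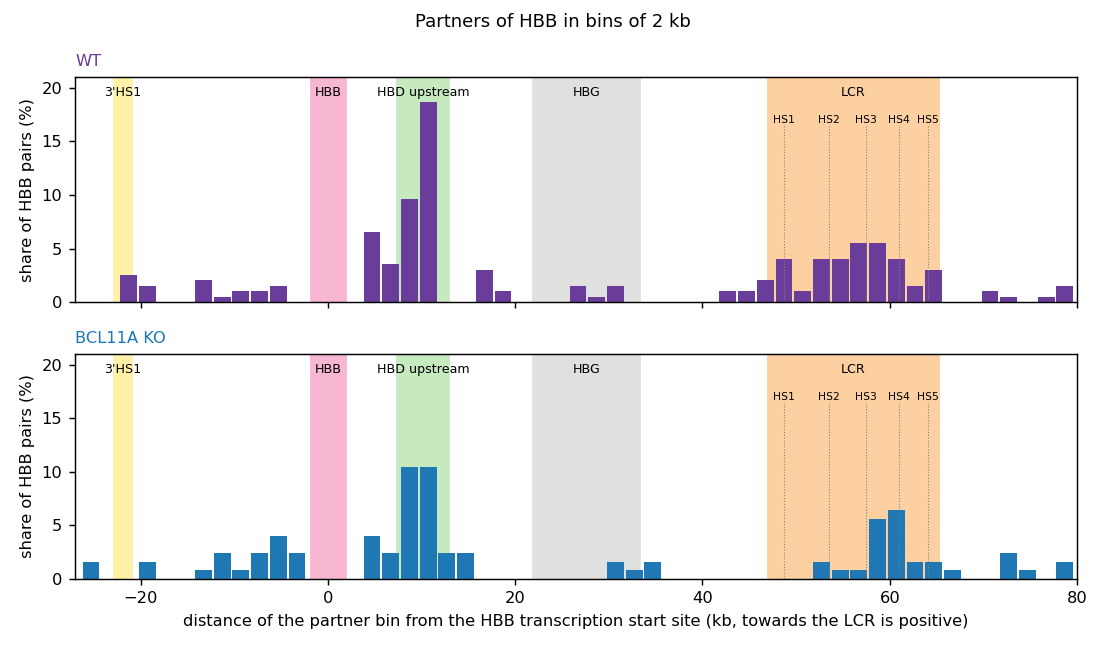
Share of *HBB* pairs (y axis, %) by partner in bins of 2 kb, for WT (top) and KO (bottom), against the distance of the bin from the *HBB* TSS in kb, positive towards the LCR. Bins far beyond the locus on both sides, which hold most of the KO pairs that left it, lie outside the x axis. Shaded areas are segments and dotted lines the centres of HS1 to HS5; the highest bin in WT, at 18.7%, lies in the segment upstream of *HBD*, and KO bins at HS1 are at 0.

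In bins of 2 kb, the bin at chr11:5258000-5259999, which holds the whole HBD-3.5kb window, was the leading partner in WT with 37 pairs (18.7%), against 13 in KO (10.4%; Fisher's exact test, adjusted p = 0.281). The bin before it, at chr11:5256000-5257999, held 19 in WT (9.60%) and 13 in KO (10.4%), so that both bins were level in KO. At chr11:5252000-5253999, between *HBB* and *HBD*, there were 13 and 5 pairs. At HS3, chr11:5304000-5305999 held 11 pairs in WT and 1 in KO (Fisher's exact test, adjusted p = 0.207), whereas its neighbour chr11:5306000-5307999 held 11 and 7.

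Of 245 bins of all anchors 28 passed the threshold (11.4%), and of the 20 tested for *HBB* none did by Fisher's exact test with Benjamini-Hochberg adjustment, while 2 had an unadjusted p under 0.05. With bins of 5 kb, 27 of 163 bins of all anchors passed (16.6%), and for *HBB* 2 of 17 did, both close to the threshold. The bin chr11:5295000-5299999 around HS1 held 10 pairs in WT and 0 in KO (Fisher's exact test, adjusted p = 0.0497), and chr11:5150000-5154999, beyond 3'HS1, held 0 in WT and 5 in KO (adjusted p = 0.0499).

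On the other side of *HBB*, away from the LCR, KO had more pairs. Pairs towards the LCR were 174 of 198 in WT (87.9%, 82.6 to 91.7) and 87 of 125 in KO (69.6%, 61.1 to 77.0), a share that fell (ratio 0.792, 0.605 to 1.03; Fisher's exact test, adjusted p = 0.000344). The interval of this ratio reaches above 1 because it treats the counts as rates, which makes it too wide for shares this large. Within the locus the share towards the LCR was 164 of 184 in WT and 68 of 86 in KO, which did not pass (ratio 0.887, Fisher's exact test, adjusted p = 0.0876). The 3'HS1 window had 5 pairs in WT (2.53%) and 0 in KO, with an adjusted p of 0.279 by Fisher's exact test. The sequence between 3'HS1 and *HBB*, which holds no other globin gene, had 15 in WT (7.58%, 4.64 to 12.1) and 18 in KO (14.4%, 9.31 to 21.6; Fisher's exact test, adjusted p = 0.127). Among pairs within the locus this became 15 of 184 (8.15%) and 18 of 86 (20.9%; Fisher's exact test, adjusted p = 0.016), the only 1 of 12 alternatives in which it passed. With ends at least 10 kb apart the ratio of KO to WT was 1.22, on the leading fragment 1.2 and with pairs of GATC fragments 1.59, against 1.9 over all pairs. It was 2.17 with the highest score and 5.18 without the leading fragment, where 2 of 114 pairs in WT and 5 of 55 in KO were counted.

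**Figure D5:**
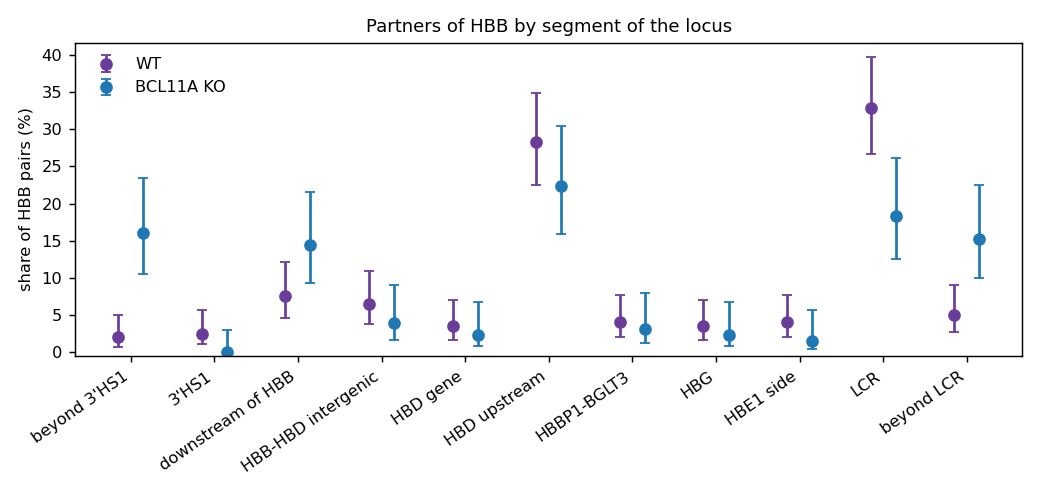
Share of *HBB* pairs (y axis, %) by partner segment in genomic order, with 95% Wilson intervals, for WT and KO. KO points lie above WT points at both ends of the plot, beyond 3'HS1 (16.0% against 2.02%) and beyond the LCR (15.2% against 5.05%), and below at the LCR (18.4% against 32.8%).

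Among the segments, the largest ratio of KO to WT lay outside the locus. Beyond 3'HS1 *HBB* had 4 pairs of 198 in WT (2.02%, 0.788 to 5.08), and in KO it had 20 of 125 (16.0%, 10.603 to 23.4), a rise of 7.92-fold (2.65 to 31.9; Fisher's exact test, adjusted p = 2.45e-05). Beyond the LCR it had 10 in WT (5.05%, 2.77 to 9.05) and 19 in KO (15.2%, 9.95 to 22.5), a rise of 3.01-fold (1.33 to 7.25; Fisher's exact test, adjusted p = 0.00898). The second rise did not pass among pairs with the highest score (10 of 194 and 11 of 97, ratio 2.2; Fisher's exact test, adjusted p = 0.177). All of these pairs stood in the list of the *HBB* bait alone, so no other bait gave a second view of them.

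These far partners fell into 8 places when ends within 10 kb were joined, 3 of them used in WT and all 8 in KO. On the 3'HS1 side, chr11:5144140-5156395, with the olfactory receptor gene *OR52A5*, took all 4 WT pairs and 10 KO pairs. The stretch chr11:5213312-5223451, with *OR51V1*, took 5 KO pairs, and chr11:4986377-4994786, with no protein-coding gene under 20 kb, took the other 5. On the LCR side, chr11:5314131-5327363, which starts next to the LCR segment and holds *OR51B4*, took 7 pairs in each list. The stretch chr11:5338268-5348920 with *OR51B2* took 5 KO pairs, chr11:5372846-5373500 with *OR51B6* took 3 and chr11:5360133-5360654 took 2. The farthest, chr11:5385890-5387721, took 3 in WT and 2 in KO. Of the pairs that left the locus, 2 fragment pairs were in both lists, of 13 in WT and 34 in KO.

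The score moved with these pairs. The Bayes factor (BF), with which the authors rated how far an interaction stands above chance, had its highest value, 150, in 194 of the 198 *HBB* pairs in WT (98.0%) and in 97 of the 125 in KO (77.6%). Of the 28 KO pairs below it, 16 were among the 39 that left the locus, against 0 of 14 such pairs in WT. The part of the score in the result was not tested beyond the count among pairs with the highest score, where the rise beyond 3'HS1 was 6-fold (4 of 194 and 12 of 97; Fisher's exact test, adjusted p = 0.00237).

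By distance, *HBB* partners in WT lay at a median of 20.3 kb (quartiles 9.70 and 56.6, farthest 139 kb) and in KO at 32.4 kb (quartiles 9.04 and 73.0, farthest 262 kb). The nearest pair spanned 3.52 kb in WT and 3.66 kb in KO. Under 10 kb there were 58 pairs in WT (29.3%) and 39 in KO (31.2%), from 10 to 25 kb 47 (23.7%) and 21 (16.8%), from 25 to 50 kb 22 (11.1%) and 8 (6.40%), and over 50 kb 71 (35.9%) and 57 (45.6%). No class of distance passed the threshold, with adjusted p-values from 0.197 to 0.805 (Fisher's exact test). The class over 50 kb joins LCR pairs, whose share fell, with most of the pairs beyond the locus, whose share rose.

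Counted as pairs of GATC fragments, *HBB* had 139 in WT and 101 in KO, and 40 were in both (28.8% of those in WT and 39.6% of those in KO). To the LCR there were 43 in WT and 19 in KO, of which 15 were shared. To the sequence upstream of *HBD* there were 33 and 21, with 12 shared.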

How the data were processed

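CAPTURE-3C-seq libraries of WT and BCL11A KO HUDEP-2 cells had been aligned to hg19 by the submitters (Bowtie2 2.2.8 and Picard are named in their processing notes). The authors deposited, for every interaction, the positions of both ends with a BF score of at least 20 and at most 150, after 3 replicates per genotype had been merged. Read numbers per interaction are not given, so the depth per sample is known only as listed pairs, and precision follows from those numbers. A count of listed pairs is not a count of reads, nor need each pair be a molecule of its own.

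The 6390 WT and 4844 KO lines were reduced to distinct pairs over the 4 unnamed lists of each file. A list was taken as that of the bait in which 100% of its pairs had an end. Segments and sites were placed from canonical GENCODE 44 transcripts on GRCh37, which is hg19, at distances read from the study's drawings by eye. The libraries' enzyme was not given in the sources used here. Of the distinct ends 259 start at a GATC, against at most 20 when shifted by up to 4 bp, so GATC fragments were used.

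Shares of pairs leaving an anchor were compared with Fisher's exact test (two-sided), and changes between anchors by Zelen's exact test, over all 12 segments as anchors with Benjamini-Hochberg adjustment, where both lists held at least 5 pairs together. Bins of 2 kb were adjusted separately. Intervals are 95% Wilson intervals, or exact conditional intervals for ratios, and 3 pairs was the floor. The intervals for ratios treat counts as rates, so they are wide for large shares and need not match Fisher's exact test. The closing section gives the effect of 22 alternatives, and 3 more were added after the data had been seen. The named items were all segments, sites and anchor parts, the 3 fragments and 5 bins with most pairs in either list, bins past the threshold and the 4 most used ends outside untranslated sequence. The bins at 5 kb and the places beyond the locus were named after their values were seen. The member rule and these lists were chosen with earlier results of these data known. Libraries of single replicates were not analysed here. Python 3.11.15, numpy 2.4.6, scipy 1.17.1 and matplotlib 3.10.9 were used, and the code was tested on simulated lists.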

Additional observations from a re-analysis of the deposited data

Results flagged for a closer look

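The change in the odds of ending in the LCR differed between *HBB* and *HBG*, with a log2 ratio of their odds ratios of -4.32 (Zelen's exact test, adjusted p = 5.77e-14). It also differed between *HBB* and the segment upstream of *HBD*, with a log2 ratio of -1.96 (Zelen's exact test, adjusted p = 0.000401). Both stand out because shares of the pairs of each anchor changed differently within 1 locus under the same contrast. The second difference holds for shares per anchor only. Seen from the LCR, the share of *HBB* fell to 0.365 of that in WT and that of the segment upstream of *HBD* to 0.373. The share of *HBG* seen from the LCR rose to 2.22 times that in WT.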

How the results depend on the processing

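The LCR ratio of *HBB* stayed below 1 under 13 alternatives (0.288 to 0.902) and passed the threshold under 8. It did not pass in the lists of the other baits (0.902), with the highest BF score (0.708), with pairs of GATC fragments (0.608), within the locus (0.757) or without the leading fragment (0.881). The rise beyond 3'HS1 passed under all 10 alternatives that gave a ratio (5.40 to 8.26). Without the leading fragment it was 0 of 114 pairs in WT and 2 of 55 in KO, with no ratio. The rise beyond the LCR did not pass with the highest BF score or with fragment pairs (2.2 in each), on the leading fragment alone (2.57) or without it (2.76). The fall of pairs towards the LCR did not pass within the locus (0.887), without the leading fragment (0.913) or in the lists of the other baits (1), which all lie on that side. The fall from the promoter side did not pass with fragment pairs (0.464), and the difference from the segment upstream of *HBD* did not within the locus (0.427). Bins of 5 kb gave 2 calls in place of 0. Of 260 further values of 24 other results, 20 held too few pairs for a test, 238 of the 240 tested kept their side of the threshold and 2 came to pass it. Several settings held fewer pairs. In the settings where the LCR fall did not pass, its ratio was also closer to 1 than the 0.56 over all pairs. The cause of the lost calls was not tested. No paired analysis was possible because the lists analysed here are 1 merged list per genotype. At this depth a partner with fewer than 3 pairs, a share under 1.52% in WT and 2.4% in KO, was not told from 0.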
